A study of Saccharomyces cerevisiae with 8 samples.

Results

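The 10 genes described here are the 5 flocculin genes of *Saccharomyces cerevisiae* (*FLO11*, *FLO1*, *FLO5*, *FLO9* and *FLO10*) and 5 transcription factors that act on *FLO11* (*FLO8*, *MSS11*, *MGA1*, *TEC1* and *PHD1*). They were picked by systematic name from the 5797 genes of the expression tables, and all 10 were found in both tables. The choice was made with the difference between the parental strains known, so the parental values are given as a description, without a test.

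RNA-seq was done on 3 Malaysian diploids, 2 wine/European diploids and 3 diploid hybrids between the populations, with 1 culture and 1 library each. UWOPS03.461.4, UWOPS05.227.2 and UWOPS05.217.3 represented the Malaysian population, and they and BC187, the first wine/European strain, are MATa/@ HO homozygotes. The second wine/European parent, RM11-1, is a cross of RM11-1a and RM11-1b with a mutated *URA3* gene and with *HO* replaced by a drug marker (MATa/@ ura3 ho::kanMX). In the study's strain list it is also heterozygous for mutations of *LYS2* and *LEU2*. Of the hybrids, YHL058 has RM11-1b as its wine/European parent, while YHL063 and YHL065 have BC187. The labels give every hybrid as MATa/@ HO, but in the strain list YHL058 has the kanMX replacement at the *HO* copy that came from RM11-1b. The Malaysian parent is UWOPS03.461.4 in YHL058 and YHL063, but UWOPS05.217.3 in YHL065. All 8 strains grew to mid-log phase in the rich medium YPD. Among the parents, replicates of a population are thus different isolates, and their spread includes the differences between isolates. In the hybrids, UWOPS03.461.4 is a parent of YHL058 and YHL063, and BC187 of YHL063 and YHL065. Alleles treated there as replicates are thus not all from different isolates. *P*-values cover only the spread among these samples.

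Flocculins are cell wall proteins with a signal peptide, an outer domain, a long stretch of serine- and threonine-rich repeats and an anchor to the wall. *FLO1*, *FLO5*, *FLO9* and *FLO10* encode lectin-like proteins that bind mannose chains on neighboring cells and make cells clump. *FLO11* encodes the adhesin needed in laboratory yeast for invasion of agar, for pseudohyphal growth of diploids and for surface biofilms. Its promoter is among the longest of yeast and joins the filamentous growth MAP kinase pathway, which acts through Ste12 and Tec1, with the protein kinase A pathway, which acts through Flo8. In laboratory yeast, *FLO* genes are often switched on in only some cells of a culture. In RNA from whole cultures, fewer expressing cells and less RNA per cell cannot be told apart.

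The deposited values are normalized read counts, for which every library was scaled by the authors to the same upper quartile (6442 in each parent and 2010 in each allele column of a hybrid). A normalized count compares 1 gene between libraries of the same table. The summed normalized counts ranged from 63253487 to 67038479 in the Malaysian strains and from 64458043 to 65266206 in the wine/European strains, and the number of reads behind a value cannot be read from the tables. The study's read statistics list far fewer uniquely mapping reads for YHL065 than for YHL058 or YHL063. The shared upper quartile hides this, so low values and listed zeros in YHL065 rest on fewer reads. As a check of the labelled diploid state, 14 genes that haploid cells express were examined. Of these, 9 were below percentile 25 of all genes per length in all 5 parents. The remaining markers were higher, from percentile 52.7 (the lowest value of *MFA1*) to 86.1 (the highest of *STE18*). The 14 were thus not low as a set, and the diploid state rests on the labels. The summed normalized count of all 14 was 11000 to 11771 in the Malaysian strains and 12292 to 12304 in the wine/European strains. None was at 0 in any parent.

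Per length of the S288C gene, *FLO11* was the most highly expressed of the 10 genes in every Malaysian strain. It had a normalized count of 261985 in UWOPS03.461.4, 21506 in UWOPS05.217.3 and 257426 in UWOPS05.227.2, against 929 in BC187 and 59 in RM11-1. Every Malaysian strain was above both wine/European strains, and neither population was uniform. UWOPS03.461.4 and UWOPS05.227.2 stood 12.2-fold and 12.0-fold above UWOPS05.217.3, and BC187 stood 15.7-fold above RM11-1. Also per length, *FLO11* lay at percentile 96.7 of all genes in UWOPS03.461.4, 69.7 in UWOPS05.217.3 and 96.6 in UWOPS05.227.2, against 8.46 in BC187 and 0.639 in RM11-1. On the scale of log2(normalized count + 1) the populations differed by 8.90 (SE 1.57, n = 3 Malaysian and 2 wine/European strains), and the 6 pairs of strains ranged from 4.53 for UWOPS05.217.3 and BC187 to 12.09 for UWOPS03.461.4 and RM11-1. The population difference was 6.93 without RM11-1 and 10.88 without BC187. Over the 5 parents, the SD of *FLO11* on this scale was 5.28, the rank 4 among 5797 genes.

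*FLO11* (YIR019C) lies at chrIX:389572-393675 on the minus strand of the S288C assembly R64. Its coding sequence holds 14 exact copies of a 36-base unit between coding bases 1009 and 2268. The first copy, at chrIX:392632-392667, is shown because it is the unit that recurs in the coding sequence, and repeated 100-base windows of *FLO11* had all their copies inside the gene. Of its 12 codons, 8 code for serine or threonine, and these are in capitals.
FLO11 repeat: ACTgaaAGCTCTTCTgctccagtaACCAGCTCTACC

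The start of the *FLO11* coding sequence is preceded by the window shown next, which lies at chrIX:394226-394425 on the minus strand and holds the stretch from 750 to 551 bases before the start codon. Capitals mark CATTCC and CATTCT, the core sequences bound by Tec1, searched on both strands as 1 motif with a free choice of C or T at the last base.
FLO11 promoter: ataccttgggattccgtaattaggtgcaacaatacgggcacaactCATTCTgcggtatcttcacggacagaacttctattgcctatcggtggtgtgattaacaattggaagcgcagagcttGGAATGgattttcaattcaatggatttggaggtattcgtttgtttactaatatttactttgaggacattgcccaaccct
Over the 1000 bases before the start codon, *FLO11* had 5 matches, a number reached by 0.615% of 6015 protein-coding genes. *FLO8* and *PHD1* had 4 matches each (2.99% of genes had as many), *FLO10* had 3 (11.4%) and *TEC1* had 2 (32.2%). *FLO5*, *FLO9* and *MGA1* had 1 match each (68.6%), and none was found before *FLO1* or *MSS11*. A match is only a run of letters in the S288C sequence, and the promoters of the strains studied were not analysed here. The window lies within the noncoding RNA *ICR1* (chrIX:393884-397082, minus strand), whose transcription is known to repress *FLO11* in laboratory yeast, and overlaps the reading frame YIR020C (chrIX:394255-394557).

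The second flocculin in level was *FLO1* (YAR050W, chrI:203403-208016, plus strand), the dominant gene of flocculation. It had a normalized count of 28771 in UWOPS03.461.4, 2654 in UWOPS05.217.3 and 27069 in UWOPS05.227.2, against 77 in RM11-1 and a listed value of 0 in BC187. As with *FLO11*, UWOPS05.217.3 was the low Malaysian strain, by 10.8-fold and 10.2-fold, and all Malaysian strains were above both wine/European strains. Per length, *FLO11* exceeded *FLO1* by 10.2-fold in UWOPS03.461.4, by 9.11-fold in UWOPS05.217.3 and 10.7-fold in UWOPS05.227.2, a narrow range beside the spread of the levels themselves. In RM11-1 this ratio was 0.861. The populations differed by 10.49 on the log2 scale (SE 2.03), a value that depends on the listed 0: it was 7.35 with RM11-1 alone and 13.64 with BC187 alone as the wine/European strain.

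*FLO10* (YKR102W, chrXI:646356-649865, plus strand), whose protein acts in both flocculation and filamentous growth, was low in all strains. It had a normalized count of 212 in UWOPS03.461.4, 96 in UWOPS05.217.3 and 407 in UWOPS05.227.2, against 32 in BC187 and a listed 0 in RM11-1. The populations did not overlap, and UWOPS05.217.3 was again the lowest of the Malaysian strains. The log2 difference was 5.15 (SE 1.54), and it was 7.67 with RM11-1 alone and 2.62 with BC187 alone as the wine/European strain.

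*FLO5* and *FLO9*, which encode close relatives of Flo1, were at or near the floor of the tables. *FLO5* (YHR211W, chrVIII:525392-528619, plus strand) had 7, 5 and 49 in the Malaysian strains, always given here with UWOPS05.217.3 in the middle and UWOPS05.227.2 last, against 4 in BC187 and 33 in RM11-1. *FLO9* (YAL063C, chrI:24000-27968, minus strand) had 32, 16 and 20 in the Malaysian strains, against 0 in BC187 and 22 in RM11-1. The populations overlapped at both genes, and the log2 differences were 0.038 (SE 1.42) for *FLO5* and 2.25 (SE 1.51) for *FLO9*. Without BC187, the value of *FLO9* was -0.016 and that of *FLO5* was -1.34, and without UWOPS05.227.2 that of *FLO5* was -0.91.

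**Figure D1:**
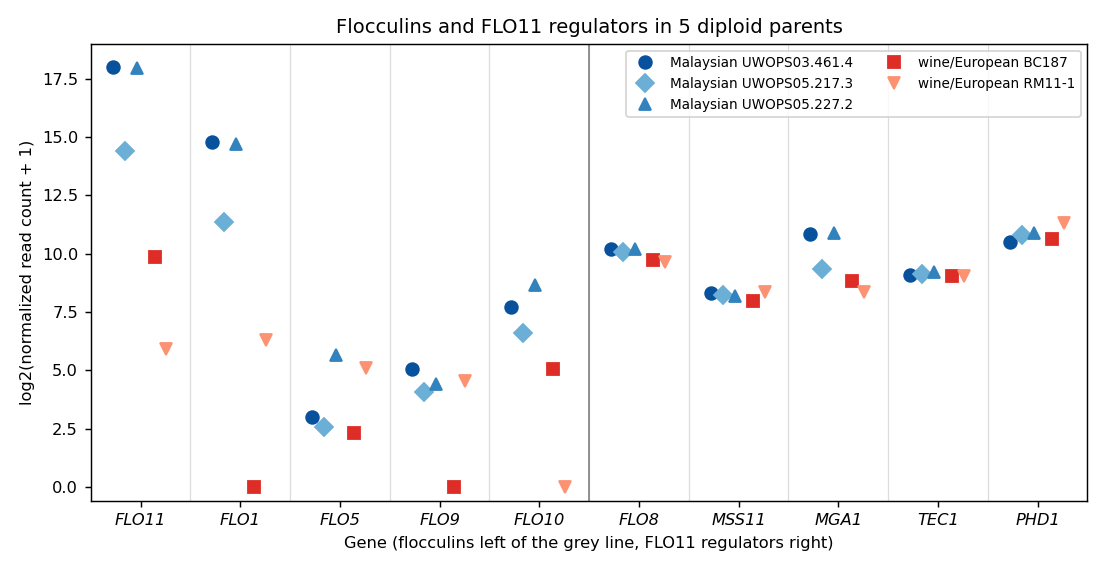
Normalized read counts of the 10 genes in the 5 parents, as log2(normalized read count + 1), with 1 point per strain and no error bars since each strain is 1 library. *FLO11* and *FLO1* spanned the widest range, with UWOPS05.217.3 below the other 2 Malaysian strains at both, while *TEC1* and *MSS11* sat at almost the same height in all 5 strains.

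The flocculins share sequence, which bears on how their reads could be assigned. Bases 61 to 120 of 4 coding sequences are shown because they give the divergence at a place ahead of the internal repeats, with capitals where a base differs from *FLO1*.
FLO1 start: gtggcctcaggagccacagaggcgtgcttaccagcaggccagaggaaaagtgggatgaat
FLO5 start: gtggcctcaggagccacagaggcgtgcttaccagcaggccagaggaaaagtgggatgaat
FLO9 start: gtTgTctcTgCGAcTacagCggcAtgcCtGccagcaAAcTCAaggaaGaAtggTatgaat
FLO10 start: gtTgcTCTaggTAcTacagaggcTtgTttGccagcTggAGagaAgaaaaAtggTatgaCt
These lie at chrI:203463-203522 (plus strand), chrVIII:525452-525511 (plus), chrI:27849-27908 (minus) and chrXI:646416-646475 (plus) of R64. *FLO5* is identical to *FLO1* here, *FLO9* differs at 19 bases and *FLO10* at 17. Over whole coding sequences the order was different: 6.71% of the 100-base windows of *FLO5* occurred also in *FLO1*, against 38.4% of those of *FLO9*. Of all 100-base windows of *FLO1*, 37.1% occurred more than once in the S288C genome and 31.6% occurred also in *FLO9*, and 46.2% of the windows of *FLO9* were repeated. The share was 12.5% in *FLO5* and 6.19% in *FLO10*. In *FLO11* it was 15.4%, every repeated window had its copies inside the gene, and no window was shared with *FLO1*. None of the windows of the 5 regulators was repeated. The authors kept only reads with a single perfect match, so counts of *FLO1*, *FLO5* and *FLO9* are uncertain where the copies agree. The same rule applies to windows repeated inside a gene, as in *FLO11* and *FLO10*. Values per length, such as the ratios of *FLO11* to *FLO1*, were not corrected for repeated windows. The repeat lengths of the isolates, which vary among yeast strains, were not analysed here.

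**Figure D2:**
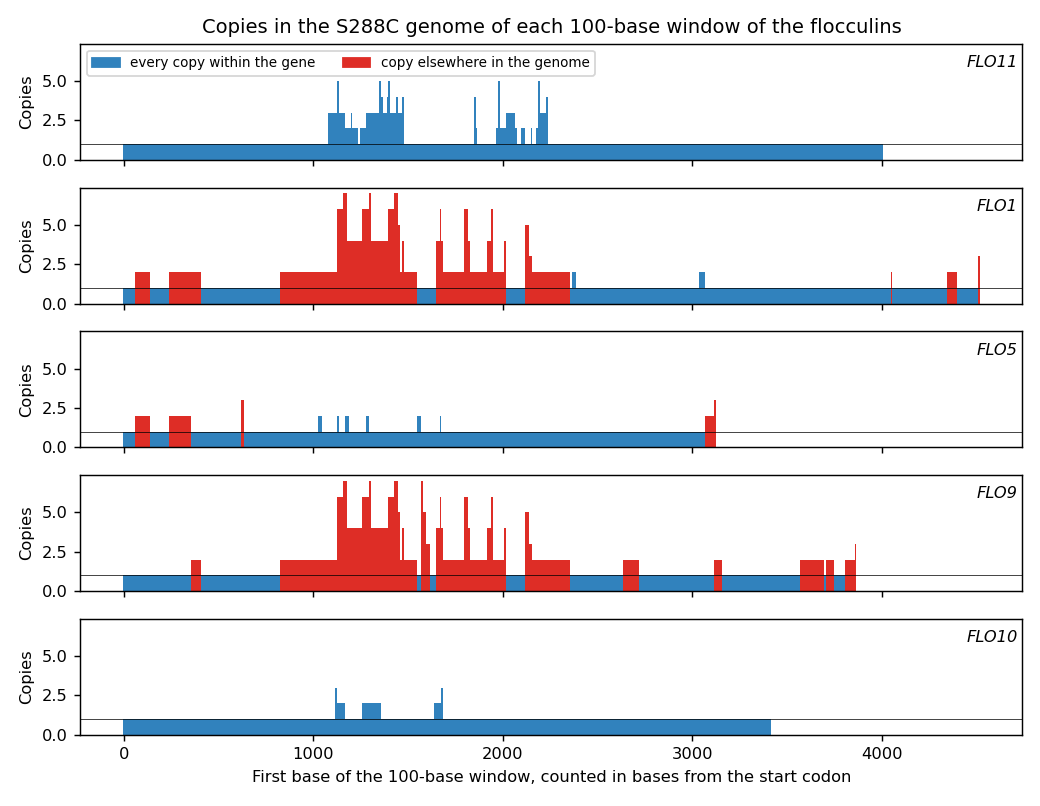
Number of exact copies in the S288C genome of 100-base windows of each flocculin, with 1 window plotted every 10 bases and position given in bases from the start codon. In *FLO11* and *FLO10* every repeated window had all its copies inside the gene (blue), while in *FLO1* and *FLO9* most repeated windows were found elsewhere too (red).

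Of the 5 regulators, *MGA1* had the widest spread over the parents. *MGA1* (YGR249W, chrVII:988049-989419, plus strand) encodes a protein resembling heat shock factors that acts in pseudohyphal growth. It had a normalized count of 1840 in UWOPS03.461.4, 659 in UWOPS05.217.3 and 1917 in UWOPS05.227.2, against 459 in BC187 and 332 in RM11-1. The order of the 5 strains at *MGA1* was nearly that at *FLO11*, with UWOPS05.217.3 between the other Malaysian strains, which were 2.79-fold and 2.91-fold higher, and the wine/European strains. The populations did not overlap and differed by 1.76 on the log2 scale (SE 0.51).

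*FLO8* (YER109C, chrV:375215-377614, minus strand) encodes the activator through which protein kinase A reaches *FLO11* and *FLO1*. The S288C reference carries a stop at codon 142 of 800 in this gene, and R64 therefore annotates a pseudogene. The stretch around it, at chrV:377174-377206 on the minus strand, is shown with the stop codon in capitals because S288C does not make the full protein, and the annotation states that other strains have a tryptophan codon here.
FLO8 stop: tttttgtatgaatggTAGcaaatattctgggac
The codon in the 5 parents was not analysed here. Its transcript had a normalized count of 1161 in UWOPS03.461.4, 1085 in UWOPS05.217.3 and 1167 in UWOPS05.227.2, against 844 in BC187 and 798 in RM11-1. All Malaysian strains were higher, and within each population the strains lay close together. The log2 difference was 0.47 (SE 0.11).

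*TEC1* (YBR083W, chrII:409169-410629, plus strand), the partner of Ste12 at filamentation genes, had 539, 564 and 594 in the Malaysian strains, against 531 in BC187 and 527 in RM11-1. The groups did not overlap but the log2 difference was 0.095 (SE 0.13). *MSS11* (YMR164C, chrXIII:587274-589550, minus strand), which encodes the partner of Flo8, had 315, 295 and 289 in the Malaysian strains, against 251 in BC187 and 331 in RM11-1, with a log2 difference of 0.055 (SE 0.19), or -0.14 without BC187 and 0.25 without RM11-1. *PHD1* (YKL043W, chrXI:356748-357848, plus strand), which enhances pseudohyphal growth when overexpressed, had 1466, 1794 and 1896, against 1590 in BC187 and 2547 in RM11-1, with a log2 difference of -0.24 (SE 0.23), or -0.58 without BC187 and 0.10 without RM11-1. At *MSS11* and *PHD1* the populations overlapped.

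At 6 of the 10 genes the parental populations did not overlap, all with the Malaysian strains higher, beside 48.9% of the 5792 genes that passed the filter on low values (a mean of 10 or more) in either direction and 26.5% with Malaysian higher. Since this contrast was known when the genes were chosen, nothing is read from this count.

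The genes whose pattern over the 5 parents was most like that of *FLO11* were *MAL12* (maltase), *PSK1* (a PAS domain kinase) and YNL040W, with Pearson's r of 0.997, 0.994 and 0.983 on the log2 scale among 248 genes with an SD of at least 1. All of these had UWOPS05.217.3 as the low Malaysian strain and RM11-1 as the lowest of all, but over a narrower range than *FLO11*. *PSK1* had 2700, 1594 and 2716 in the Malaysian strains, against 752 in BC187 and 543 in RM11-1. Among the other flocculins and regulators, r with *FLO11* was 0.956 for *MGA1*, 0.953 for *FLO10* and 0.808 for *FLO1*, and it was 0.979 for *FLO8*, whose SD was under 1. It was -0.64 for *PHD1*, -0.038 for *MSS11* and -0.029 for *FLO5*. For *FLO10*, the closest genes were YBL100W-A (r = 0.991), *VBA3* (0.990), a transporter gene, and *MRH1* (0.990), which encodes a membrane protein. These values describe 5 libraries in 2 populations, and a difference between the populations alone gives a high r.

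In the hybrids, both alleles of a gene are read in the same cells, and a difference between them was measured from reads that cover a position where the parents differ. At *FLO11*, the Malaysian and the wine/European allele had normalized counts of 93 and 20 in YHL058, of 166 and 18604 in YHL063, and of 21 and 6261 in YHL065. The Malaysian allele was thus low in all 3 hybrids, whereas the BC187 allele was high in both hybrids that carried it and the RM11-1 allele was low. The wine/European allele made up 17.7% of the normalized counts of both alleles in YHL058, 99.1% in YHL063 and 99.7% in YHL065. YHL058 and YHL063 share the Malaysian parent UWOPS03.461.4 and differ in the wine/European parent, and their wine/European alleles differed 930.2-fold, against 1.78-fold between their Malaysian alleles. Over the 3 hybrids the log2 difference was -4.26 (SE 2.49, limma adjusted *P* = 0.481). It was -7.48 without YHL058 (adjusted *P* = 0.0512), -3.0 without YHL063 (0.949) and -2.32 without YHL065 (0.916). In the fit without YHL058, both wine/European values were of the BC187 allele. The difference between YHL058 and the BC187 hybrids was not tested, as the RM11-1 allele was measured in 1 hybrid.

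*FLO1* was low in every hybrid. The Malaysian and the wine/European allele had 29 and 27 in YHL058, with 37 and 0 in YHL063 and 62 and 0 in YHL065. The BC187 allele was listed at 0 in both hybrids, and BC187 itself was listed at 0, while the RM11-1 allele was at 27 and RM11-1 itself at 77. The log2 difference was 3.77 (SE 1.34, limma adjusted *P* = 0.212, unadjusted *P* = 0.0284), and without YHL058 it was 5.61 with an adjusted *P* of 0.0109. It was 3.04 without YHL063 (adjusted *P* = 0.820) and 2.67 without YHL065 (0.634). Without YHL058 both wine/European values were of the BC187 allele, so that *P*-value does not cover different wine/European isolates.

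*FLO10*, *FLO5* and *FLO9* had a mean under 10 over the 6 allele columns and were outside the test. *FLO10* had 15 and 0 in YHL058, with 25 and 3 in YHL063 and 12 and 0 in YHL065 for the Malaysian and the wine/European allele, so that the Malaysian allele was higher in 3 of 3 hybrids. When no filter was applied, its log2 difference was 3.47 (SE 0.67, limma adjusted *P* = 0.0425), or an adjusted *P* of 0.0139 with the alleles of each hybrid paired. *FLO5* had 5 and 32 in YHL058, with 0 and 3 in YHL063 and 0 and 4 in YHL065, higher for the wine/European allele each time. Without the filter, its log2 difference was -2.26 (SE 1.09), with an adjusted *P* of 0.364, or 0.0276 when paired. *FLO9* was at 1 and 2 in YHL058, and both alleles were listed at 0 in YHL063 and YHL065. At values this small the size of a log2 difference is set largely by the added 1. A direction shared by all 3 hybrids, as at *FLO10* and *FLO5*, was seen at 57.4% of the 5738 genes tested between alleles.

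**Figure D3:**
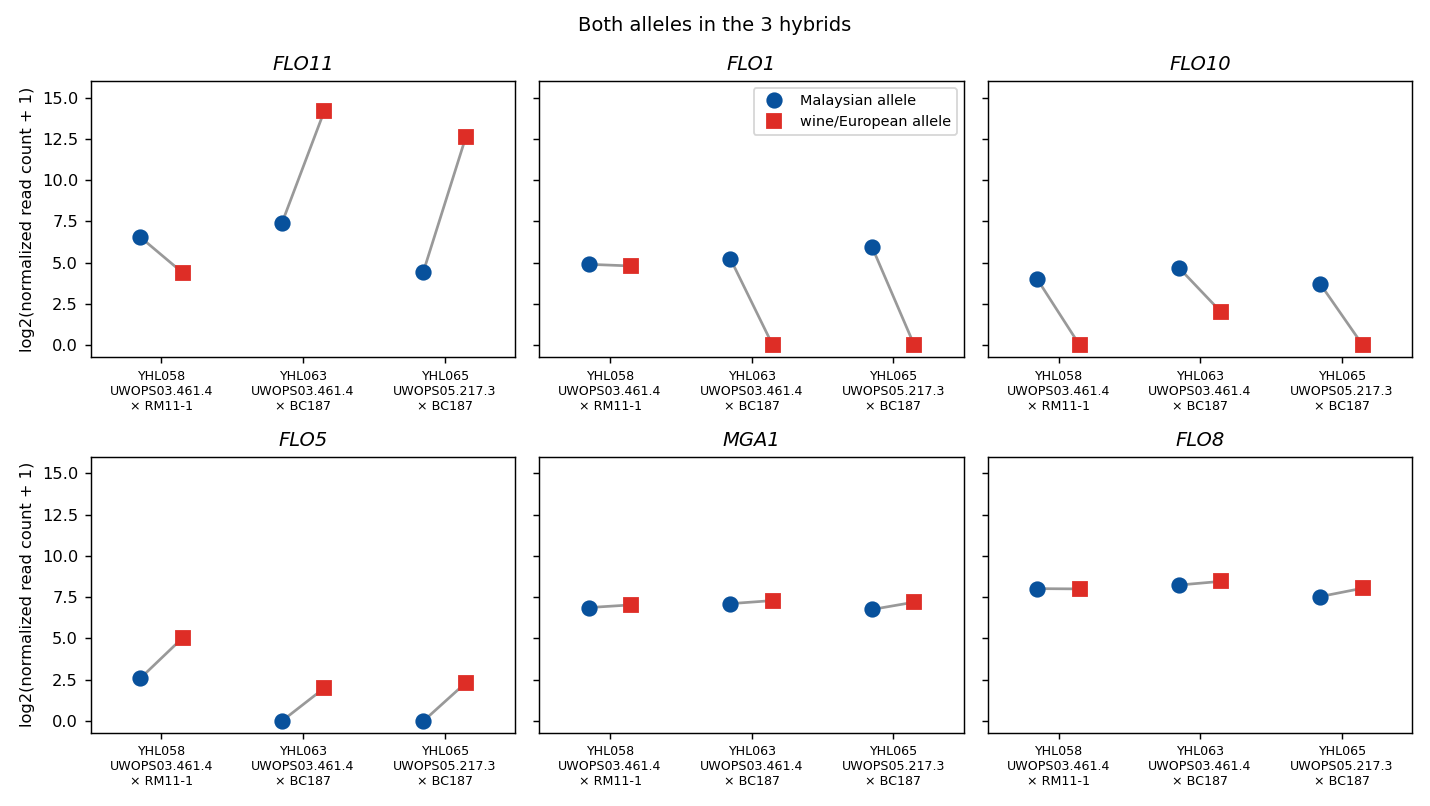
Normalized read counts of the Malaysian (blue) and the wine/European (red) allele of 6 genes in each hybrid, as log2(normalized read count + 1), with lines joining the alleles of 1 culture. At *FLO11* the wine/European allele was low in YHL058 (20) and high in YHL063 (18604) and YHL065 (6261), while the alleles of *MGA1* and *FLO8* lay near each other in all 3 hybrids.

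The regulators were closer to even between alleles. At *MGA1* the Malaysian and the wine/European allele had 116 and 130 in YHL058, with 137 and 156 in YHL063 and 107 and 146 in YHL065. The Malaysian allele was the lower in 3 of 3 hybrids, as at 28.1% of the 5738 genes tested. The amount was small, with a log2 difference of -0.26 (SE 0.18, limma adjusted *P* = 0.561). *FLO8* had 258 and 255 in YHL058, with 300 and 351 in YHL063 and 185 and 263 in YHL065, with a log2 difference of -0.24 (SE 0.23, limma adjusted *P* = 0.741). *TEC1* had 81 and 77, 77 and 78, and 49 and 69 in the same hybrids, with a log2 difference of -0.14 (SE 0.26, limma adjusted *P* = 0.920). None of these 3 genes passed the test.

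*MSS11* had 39 and 46 in YHL058, with 28 and 57 in YHL063 and 29 and 45 in YHL065 for the Malaysian and the wine/European allele. Every Malaysian value was below every wine/European value, and the log2 difference was -0.62 (SE 0.26, limma adjusted *P* = 0.301). *PHD1* had 742 and 589 in YHL058, with 905 and 700 in YHL063 and 1227 and 774 in YHL065. Its Malaysian allele was higher in 3 of 3 hybrids, by 0.46 on the log2 scale (SE 0.21, limma adjusted *P* = 0.344). The direction was the same in all 3 hybrids at 57.4% of the 5738 genes tested. With the alleles of each hybrid paired, *PHD1* passed the threshold (adjusted *P* = 0.0382).

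Of the 10 genes, 7 passed the filter on low values between alleles, and 0 of the 7 had an adjusted *P* under 0.05 in limma, beside 4.71% of the 5738 genes tested (2.07% higher and 2.63% lower for the Malaysian allele). An unadjusted *P* under 0.05 was reached by 1 of the 7 (*FLO1*), beside 17.6% of all genes, and the groups did not overlap at 2 of the 7, beside 23.2%. With the alleles of each hybrid paired, 1 of the 7 (*PHD1*) had an adjusted *P* under 0.05 and was higher for the Malaysian allele, beside 17.9% in either direction and 9.01% in this one. With 7 genes tested, these counts lie near the shares of all genes.

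Each hybrid can be set beside its own parents, although the tables were normalized separately and no difference between them was tested. At *FLO11*, UWOPS03.461.4 exceeded BC187 by 8.14 on the log2 scale, whereas in their hybrid YHL063 the Malaysian minus wine/European allele difference was -6.80. UWOPS05.217.3 exceeded BC187 by 4.53, and in YHL065 the allele difference was -8.15. UWOPS03.461.4 exceeded RM11-1 by 12.09, and in YHL058 the allele difference was 2.16. The sign was thus opposite in both BC187 hybrids and the same in the RM11-1 hybrid. At *MGA1*, the parental differences were 2.47, 2.0 and 0.52 for the parents of YHL058, YHL063 and YHL065, and the allele differences were -0.16, -0.19 and -0.44. A gene with all Malaysian strains above all wine/European strains and with the Malaysian allele lower in all 3 hybrids was seen at 2.7% of the 5738 genes, *MGA1* among them. At *FLO1* and *FLO10* the sign was the same in all 3. *FLO1* had parental differences of 8.53, 14.81 and 11.37 and allele differences of 0.10, 5.25 and 5.98. *FLO10* had parental differences of 7.73, 2.69 and 1.56 and allele differences of 4.0, 2.70 and 3.70. The latter rest on wine/European counts of 0, 3 and 0. The share of all genes with the same sign in all 3 was not counted, so nothing is read from this.

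**Figure D4:**
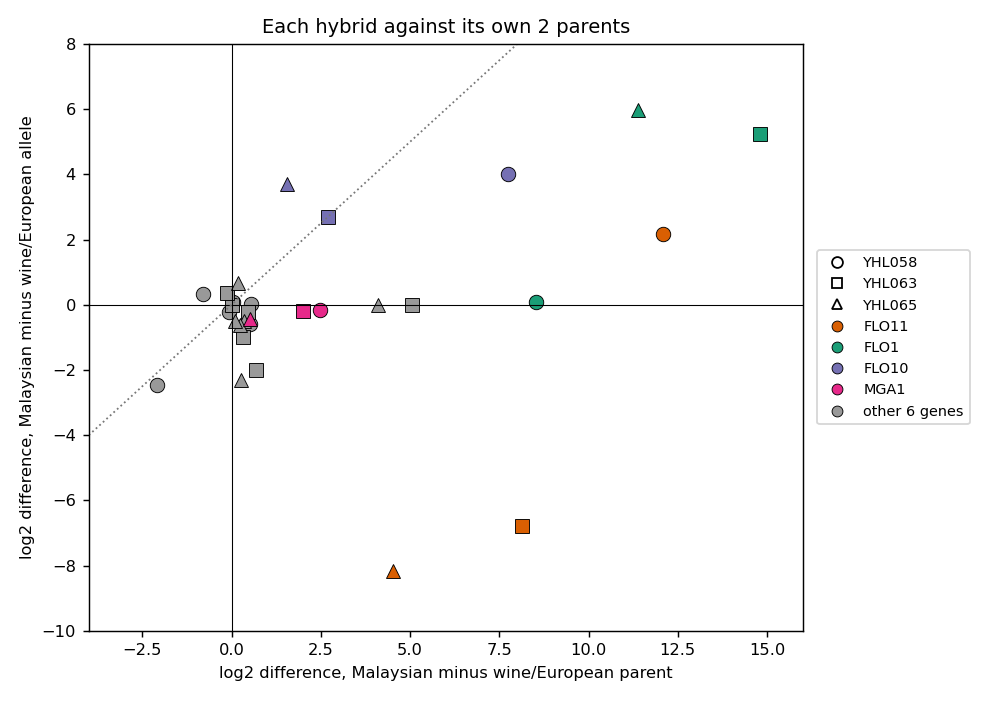
Malaysian minus wine/European log2 difference of the alleles in a hybrid (vertical) against that of its parents (horizontal), with 1 point per gene and hybrid and the dotted line marking equal differences. *FLO11* fell far below the line in all 3 hybrids and below 0 in YHL063 (-6.80) and YHL065 (-8.15), and *MGA1* lay just below 0 in all 3.

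Of the genes near *FLO11* on chromosome IX, *MRS1* and YIR018C-A are given as examples. *MRS1* (chrIX:397294-398385), a mitochondrial splicing factor gene, had 1196 and 1173, 1241 and 1330, and 1503 and 1710 for the Malaysian and wine/European alleles of YHL058, YHL063 and YHL065. The small reading frame YIR018C-A (chrIX:385564-385701) had 220 and 592, 240 and 1112, and 255 and 997, and it was also lower in the Malaysian parents, at 745, 657 and 720, against 2073 in BC187 and 1854 in RM11-1. In YHL063 and YHL065 the direction at YIR018C-A was that of *FLO11*, but in YHL058 and in the parents it was opposite. These neighbors were named after their values were seen.

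Of the wider network, 65 genes in 6 lists were examined, and 61 were in the tables. In the parents 9 of the 61 had an adjusted *P* under 0.05 (3 higher and 6 lower in Malaysian strains), beside 10.9% of all genes (5.06% higher and 5.82% lower), and the median log2 difference was -0.028, beside 0.028 over all genes. Between alleles, 2 of 60 genes tested passed (1 higher and 1 lower), beside 4.71% of all genes (2.07% higher and 2.63% lower), with a median of -0.033 beside 0.0049. With the alleles paired by hybrid the count was 13 of 60 (4 higher and 9 lower), beside 17.9% of all genes (9.01% higher and 8.87% lower).

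Among 15 other regulators of the *FLO11* promoter, 1 fell and 14 did not pass the test in the parents, with a median of -0.059. The gene that fell was *NRG2*, a repressor of filamentous growth, with a normalized count of 674, 545 and 548 in the Malaysian strains, against 1009 in BC187 and 911 in RM11-1 (log2 difference -0.71, SE 0.15, limma adjusted *P* = 0.0438). This call was lost when any of 4 of the 5 strains was left out (adjusted *P* from 0.0930 to 0.179). *STE12*, the partner of Tec1, had a log2 difference of -0.028, the repressor genes *SFL1* and *NRG1* had -0.30 and -0.059, and *SOK2*, which encodes a relative of Phd1, had -0.33. None of these passed in the parents, and none of the 15 passed between alleles, where the median was -0.15. With the alleles paired by hybrid, 1 of the 15 was higher and 2 were lower for the Malaysian allele in limma: *SFL1* (0.39, adjusted *P* = 0.0406), *MIG1*, a glucose repressor gene (-0.53, 0.0395), and *MSN1*, an activator gene (-0.38, 0.0418).

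In the filamentous growth MAP kinase pathway, 2 of 14 genes fell and 12 did not pass in the parents (median -0.11). *HKR1*, a mucin-like membrane sensor gene, had 1961, 2111 and 1819 in the Malaysian strains, against 4750 in BC187 and 6366 in RM11-1 (log2 difference -1.49, SE 0.16, limma adjusted *P* = 0.00722). Its alleles in the hybrids differed by -0.091 (adjusted *P* = 0.934). *DIG1*, which encodes an inhibitor of Ste12 and Tec1, had 1680, 2115 and 1340 in the Malaysian strains, against 3393 in BC187 and 3506 in RM11-1 (-1.04, SE 0.20, limma adjusted *P* = 0.0352), a call lost without any of UWOPS03.461.4, UWOPS05.227.2, BC187 or RM11-1 (0.0675 to 0.137). Between alleles *DIG1* differed by -0.74 (limma adjusted *P* = 0.152, or 0.0070 when paired). No gene of this pathway passed the unpaired test between alleles, where the median was -0.11. When paired, 1 of the 14 was higher and 2 were lower for the Malaysian allele, *CDC24* (0.60, limma adjusted *P* = 0.0361), *MSB2* (-0.34, 0.0354) and *DIG1*. Cdc24 is the exchange factor of Cdc42, and Msb2 is a mucin-like sensor.

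In the cAMP and protein kinase A pathway, 2 of 13 genes rose and 11 did not pass in the parents. The median was 0.41, beside 0.028 over all genes. Medians of this size were also found for the other targets of Tec1 and Ste12 (0.41) and the other adhesins (-0.43). *RAS2*, which encodes the GTPase that activates adenylate cyclase, had 11283, 8951 and 9884 in the Malaysian strains, against 5266 in BC187 and 5794 in RM11-1 (0.86, SE 0.13, limma adjusted *P* = 0.0198). The call of *RAS2* was lost without UWOPS03.461.4 (adjusted *P* = 0.0908) or UWOPS05.227.2 (0.0984). *TPK2*, which encodes the protein kinase A subunit that acts on Flo8, is named after its values were seen: it had 3810, 2092 and 3880 in the Malaysian strains, against 1211 in BC187 and 1942 in RM11-1 (1.03, SE 0.35, limma adjusted *P* = 0.1199). Between alleles, none of the 13 passed the unpaired test (median 0.089). When paired, 1 was higher and 2 were lower for the Malaysian allele. The lower ones were *GPR1*, the receptor gene of the pathway (-0.38, limma adjusted *P* = 0.0197), and *GPA2*, which encodes its G protein subunit (-0.45, 0.0156).

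In the RIM101 pathway, which relays external pH and acts on *FLO11* through the repressor Nrg1, 1 of 7 genes fell and 6 did not pass in the parents. *RIM21*, which encodes the pH sensor, had 1524, 1647 and 1574 in the Malaysian strains, against 2996 in BC187 and 3142 in RM11-1 (-0.96, SE 0.10, limma adjusted *P* = 0.00691). The call was lost without UWOPS03.461.4 (0.0566) or UWOPS05.227.2 (0.0564). None of the 7 passed the unpaired test between alleles, where *RIM21* had -0.73 (limma adjusted *P* = 0.285, or 0.0487 when paired). *DFG16*, another gene of pH sensing, had -0.71 (0.281, or 0.0485 when paired), so that 2 of the 7 were lower for the Malaysian allele in the paired test.

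Of 4 other targets of Tec1 and Ste12, 1 rose and 3 did not pass in the parents. *PGU1*, which encodes the pectin-degrading endopolygalacturonase, had 1372, 1458 and 1504 in the Malaysian strains, against 417 in BC187 and 312 in RM11-1 (1.998, SE 0.16, limma adjusted *P* = 0.00342). It was also the gene of this list that passed between alleles, with 342 and 103 in YHL058, with 335 and 93 in YHL063 and 268 and 130 in YHL065 for the Malaysian and the wine/European allele (1.53, SE 0.20, limma adjusted *P* = 0.0111). The allelic call was lost without YHL058 (0.0738) or YHL063 (0.321), with the Malaysian allele higher in 3 of 3 hybrids. All 3 hybrids had the same direction at 57.4% of the genes tested. In contrast to *FLO11*, strains of a population lay close together at *PGU1*.

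Among other adhesins and flocculin-like reading frames, 8 of 12 listed genes were in the tables and 4 were not used here. In the parents 2 of the 8 fell and 6 did not pass. *AGA1*, which encodes the anchor of a-agglutinin, had 211, 192 and 190 in the Malaysian strains, against 553 in BC187 and 1671 in RM11-1 (-2.28, SE 0.46, limma adjusted *P* = 0.0376), a call lost without any Malaysian strain (0.0884 to 0.139). *CSS1*, a gene for a serine- and threonine-rich protein similar to Hpf1, had 10396, 8908 and 9911, against 49337 in BC187 and 42624 in RM11-1 (-2.24, SE 0.13, limma adjusted *P* = 0.00132). Between alleles *AGA1* passed as well, with 75 and 347 in YHL058, with 93 and 338 in YHL063 and 132 and 515 in YHL065 (-2.0, SE 0.27, limma adjusted *P* = 0.0144), and the call was lost without YHL058 (0.0601) or YHL063 (0.300). At *CSS1* the difference between alleles was positive, opposite to the parents, and did not pass (1.39, SE 1.76, limma adjusted *P* = 0.839). Only in YHL058 was its Malaysian allele the higher, at 7662 against 147 for the RM11-1 allele. The BC187 allele was higher in YHL063 (16804 against 10431) and in YHL065 (13110 against 7323). Why the RM11-1 allele was low here, and whether this bears on its low value at *FLO11*, was not tested. *AGA1* is induced in mating, and 2 genes of the haploid check, named after their values were seen, also had lower values in the Malaysian parents. *FUS1*, needed for cell fusion, had 33, 36 and 43, against 151 in BC187 and 294 in RM11-1 (limma adjusted *P* = 0.0214). *RME1*, a repressor of meiosis genes, is also on the list of other *FLO11* promoter regulators. It had 62, 169 and 77, against 273 in BC187 and 300 in RM11-1 (log2 difference -1.61, limma adjusted *P* = 0.0848). Some other markers of the check varied little over the parents, such as *AGA2* (1361 to 1585), *MFA2* (1546 to 1670) and *MF(ALPHA)2* (2161 to 2287). Others varied more, such as *BAR1* (76 to 190), *STE6* (37 to 91) and *STE2* (230 to 442). The part of *FUS1* and *RME1* in the difference at *AGA1* was not tested.

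**Figure D5:**
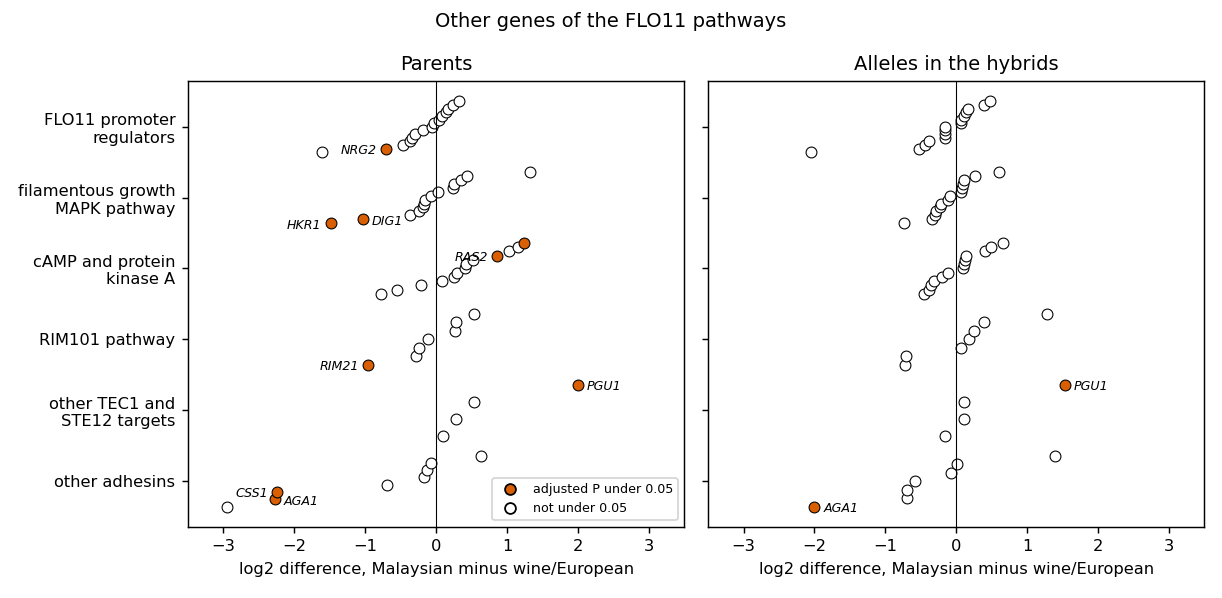
Malaysian minus wine/European log2 differences of the 61 other pathway genes between parents (left) and of the 60 tested between alleles (right), by list, with 1 point per gene. Filled points had an adjusted *P* under 0.05 in the unpaired limma fit (9 in the parents, 2 between alleles), and *PGU1* and *AGA1* are filled in both panels.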

How the data were processed

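RNA-seq libraries of 5 parents and 3 hybrids were processed by the authors, who mapped reads with Bowtie (version 0.12.7 per the labels) to strain genomes amended with SNPs. A read counted only where it matched 1 place perfectly, and for a hybrid the genomes of both its parents were joined into 1 target. The deposited values are normalized read counts, made by the authors with EDASeq for GC content and upper quartile and rounded to whole numbers, and they are treated as a score and not as raw counts. The study's supplement calls such columns raw counts, but the libraries of a table share 1 upper quartile. The release of the reference behind these genomes is not given in the sources used here. The deposited columns of the authors' own DESeq comparison (means, fold changes and *P*-values) were not used.

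On the scale of log2(value + 1), all genes whose mean reached 10 were tested with limma (version 3.58.1, R 4.3.3; lmFit, eBayes with trend, Benjamini-Hochberg over all genes, threshold 0.05), with isolates or hybrids as replicates and parents and hybrids fitted separately. Malaysian minus wine/European is positive where Malaysian was higher. A log2 difference understates the change of low genes. The alleles of a hybrid come from 1 culture, and their deviations from the group means correlated at 0.669, 0.541 and 0.476 within YHL058, YHL063 and YHL065, so paired values are given for the counts of each list and for the genes named where they change a call. After the study's methods, the main values are unpaired. Other settings tried were pseudocounts of 10 and 0.5, a filter at a mean of 100 or none, median-ratio scaling, quantile normalization, no trend, leaving out each strain or hybrid, and pairing. Pairing together with no filter was added after seeing the data.

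The 10 genes, the 6 lists and the 14 haploid markers were chosen with earlier results of these data known. Named genes are the 10, *STE12*, *SFL1*, *NRG1*, *NRG2* and *SOK2*, up to 6 genes per list and comparison with an adjusted *P* under 0.05, and the 3 genes most correlated with *FLO11* and *FLO10*. Genes that passed only when paired were named after their values were seen. An item that meets this rule is not reported here. Of the identifiers, 5792 were found in the S288C assembly R64, which gave lengths, positions and, from RefSeq, sequences. The files hold no coordinates. Repeats were counted as exact 100-base windows on both strands. Tables were made with Python 3.11.15, numpy 2.4.6 and pandas 2.3.3, and figures with matplotlib 3.10.9.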

Additional observations from a re-analysis of the deposited data

Results flagged for a closer look

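At 3 of the 10 genes the alleles differed one way in the RM11-1 hybrid and the other way in both BC187 hybrids, a difference that was not tested since 1 hybrid stands against 2. Over the 5738 genes tested between alleles, 57.4% had the same direction in all 3 hybrids. The share of all genes with this split was not counted, so nothing is read from the count of 3. At *FLO11* the Malaysian minus wine/European difference was 2.16 on the log2 scale in YHL058, against -6.80 in YHL063 and -8.15 in YHL065. At *FLO8* it was 0.017, against -0.23 and -0.51, and at *TEC1* it was 0.072, against -0.018 and -0.49, all of them small.

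*MGA1* was higher in every Malaysian strain than in every wine/European strain, while its Malaysian allele was the lower in 3 of 3 hybrids, with a log2 difference of -0.26. Both together held at 2.7% of 5738 genes. The parental and allelic differences come from tables that were normalized separately, and the difference between them was not tested.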

How the results depend on the processing

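The number of genes with an adjusted *P* under 0.05 depended on the libraries included and, between alleles, on the pairing. In the parents it was 630, and it ranged from 107 to 1011 when a strain was left out: leaving out UWOPS03.461.4 gave 107, leaving out UWOPS05.227.2 gave 112 and leaving out RM11-1 gave 1011. The 9 calls among the other pathway genes ranged from 3 to 13. Between alleles 270 genes passed, 12 to 155 when a hybrid was left out (12 without YHL063), 1026 with the alleles paired by hybrid as a replicate block, and 1042 with that block and no filter. Of the other pathway genes 2 passed, 0 to 2 when a hybrid was left out, and 13 with the block, with or without the filter. Of the flocculins and regulators 0 passed, 0 to 1 when a hybrid was left out, 1 with no filter (*FLO10*), 1 with the block (*PHD1*), and 3 with the block and no filter (*FLO10*, *PHD1* and *FLO5*). Leaving out 1 library turned some signs. In the parents, this held for *PHD1*, *MSS11*, *FLO5* and *FLO9*, with the values given above. There *STE12* ranged from -0.11 to 0.052 (positive without BC187) and *NRG1* from -0.44 to 0.32 (0.044 without UWOPS05.217.3 and 0.32 without RM11-1). Between alleles *TEC1* ranged from -0.25 to 0.027, *NRG1* from -0.091 to 0.23 and *NRG2* from -3.22 to 0.29, each turned without YHL065, and *CSS1* ranged from -0.76 to 2.503, turned without YHL058. Over all tested single genes and settings, 353 of 393 values kept their sign and side of the threshold, 22 lost and 11 gained a call, and 7 turned sign. Apart from the calls named here and in the text, pairing ended or made no call at a named gene. The causes were not tested. With normalized values, the reads behind a low value such as that of *FLO9* are not known, and a listed 0 has no stated detection limit.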
